A study of Mus musculus with 3 samples.

Results

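The genes described here encode receptors that place lymphocytes within lymphoid organs or let them leave, together with Cd69, a surface protein that acts on one of them. They were taken by gene symbol from a list of 9: Ccr7, Cxcr4, Cxcr5, S1pr1, S1pr4, Gpr183, P2ry8, Gpr18 and Cd69. Of these, 8 matched a gene of the GENCODE M21 annotation used for the deposited tables, out of 55536 genes in all, 22028 of them protein-coding. P2ry8, known from human germinal centre B cells, matched no symbol and is not analysed here.

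Polyadenylated RNA was sequenced from primary effector memory helper T cells, CD4+ and with an alpha-beta receptor, of 1 adult male C57BL/6J mouse aged 7 months. The labels name no treatment or genetic change, and the sources used here do not say how the cells were sorted. Acoustically sheared RNA with fragments of 100 to 300 bases gave 3 libraries, labelled as technical replicates 1, 2 and 3 of 1 biological replicate, so they form 1 group with no second condition. Estimated gene counts summed to 16251564, 14878641 and 14152590 in libraries 1, 2 and 3. All errors below are therefore technical spreads within 1 animal. In bulk RNA of this kind, fewer cells carrying a transcript and less transcript per cell cannot be told apart.

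As background, most of these receptors are coupled to G proteins and read gradients of ligands made by stromal and endothelial cells. CCR7 follows the chemokines CCL19 and CCL21 into lymph nodes and their T cell zone, CXCR5 follows CXCL13 into B cell follicles, and CXCR4 follows CXCL12, which is abundant in bone marrow. GPR183, also called EBI2, senses oxysterols at the edge of the follicle. S1PR1 senses sphingosine 1-phosphate (S1P), which is high in blood and lymph, and carries lymphocytes out of the tissue, while CD69 binds S1PR1 and removes it from the cell surface, which holds cells back. S1PR4 is another S1P receptor, found mainly on blood cells, and GPR18 has been tied in mice to lymphocytes of the gut epithelium. Effector memory cells are conventionally separated from naive and central memory cells in part by low CCR7 on their surface.

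Levels are given in TPM, the deposited share of all transcripts after correction for transcript length, with n = 3 libraries throughout. All 8 genes lay at or above 1 TPM in every library, as did 45.5% of protein-coding genes, and all 8 lay at or above 10 TPM, as did 32.9%. At or above 100 TPM in every library were 6 of 8, against 7.27% of protein-coding genes. Together the 8 genes summed to 2780 TPM in library 1, 3085 TPM in library 2 and 2776 TPM in library 3, or 0.379%, 0.407% and 0.384% of the gene counts.

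By marker transcripts the cells matched the helper T cell part of their label, while genes of both memory lists were detected. All 8 T cell and helper markers were at or above 1 TPM in every library, with summed levels of 9313, 10088 and 9162 TPM and with Trac at 3271 TPM ± 341, while of the CD8 genes Cd8a had 3 counts in all and Cd8b1 stood at 4.16 TPM ± 0.887. All 6 effector memory markers were likewise detected, among them Ccl5 at 2974 TPM ± 319 and Cd44 at 131 TPM ± 8.63, and all 6 lay at or above 100 TPM in every library. Of 7 naive and central memory markers, 6 were at or above 1 TPM in every library and 4 at or above 100 TPM. Detection of the effector memory markers therefore does not by itself set the labels apart. Ccr7 stood at 239 TPM ± 10.2 beside Tcf7 at 1138 TPM ± 34.5 and Satb1 at 339 TPM ± 9.10, also on the list of naive and central memory markers, so the transcript data go against the low CCR7 that the label implies. Whether the protein was at the surface was not measured.

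Transcripts that define other cells bearing these receptors were at or near 0 for B cells and for monocytes and neutrophils, while some genes on the other lists were detected. Of 10 B cell markers, whose cells also express Cxcr5, Ccr7, Gpr183 and Cxcr4, 0 reached 1 TPM in every library, and their sums were 3.08, 1.57 and 2.73 TPM. Of 6 monocyte and neutrophil markers, 0 reached that level, with sums of 0.690, 1.18 and 2.30 TPM. Dendritic cell markers summed to 35.0, 38.9 and 31.4 TPM, with Zbtb46 at 26.0 TPM ± 2.15 as the leading gene, 3 of 8 at or above 1 TPM, and Clec9a with 0 counts in every library. Endothelial markers summed to 59.9, 60.2 and 61.4 TPM through Pecam1 at 59.7 TPM ± 0.636, which T cells also express, with Cdh5 at 0.543 TPM ± 0.352. Natural killer cell markers summed to 22.8, 25.0 and 15.9 TPM, with 2 of 4 at or above 1 TPM, Klrb1c at 18.0 TPM ± 4.19 and Klra8 with 0 counts. A count of 0 allows up to 3 counts, or 0.185, 0.202 and 0.212 CPM (counts scaled to the library total) in libraries 1, 2 and 3, for counting error only.

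The 7 receptors other than CD69 are 7-pass membrane proteins, and their coding sequences hold a shared landmark. At the inner end of one membrane-crossing helix, receptors of this class carry an acidic residue, an arginine and an aromatic residue, a triplet involved in G protein coupling. The coding sequence of all 7 leading transcripts held such a triplet of codons within codons 100 to 170, while that of Cd69, a C-type lectin-like protein, held none there. The same search found a triplet in 9.65% of 19043 mouse genes with a long enough coding sequence, so a match is a description of the letters only. The stretches follow, read 5′ to 3′ on the coding strand from the GENCODE M21 transcripts, with the triplet in capitals.
Ccr7: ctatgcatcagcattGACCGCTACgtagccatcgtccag
Cxcr4: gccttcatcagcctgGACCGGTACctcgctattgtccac
Cxcr5: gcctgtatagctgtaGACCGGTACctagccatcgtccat
S1pr1: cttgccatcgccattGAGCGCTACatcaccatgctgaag
S1pr4: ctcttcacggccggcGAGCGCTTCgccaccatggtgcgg
Gpr183: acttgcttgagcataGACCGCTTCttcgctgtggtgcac
Gpr18: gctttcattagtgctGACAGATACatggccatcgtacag

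These stretches lie on the minus strand of GRCm38/mm10 at chr11:99145615-99145653 for Ccr7, chr1:128589497-128589535 for Cxcr4, chr9:44513894-44513932 for Cxcr5, chr3:115712500-115712538 for S1pr1, chr10:81499183-81499221 for S1pr4, chr14:121954715-121954753 for Gpr183 and chr14:121912237-121912275 for Gpr18. The first codon encodes aspartate in the chemokine receptors, Gpr183 and Gpr18, and glutamate in both S1P receptors. The last codon encodes tyrosine except in S1pr4 and Gpr183, which have phenylalanine. The genes are far from identical at the base level. Between any pair of their leading coding sequences the longest run of identical aligned bases was 15, found between S1pr1 and Cd69, and Ccr7 and Cxcr4 were identical at 58.3% of 1044 aligned bases. The authors' assignment uncertainty at gene level was 0 for 7 of the genes and at most 0.0368% of the count for Cxcr5.

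**Figure D1:**
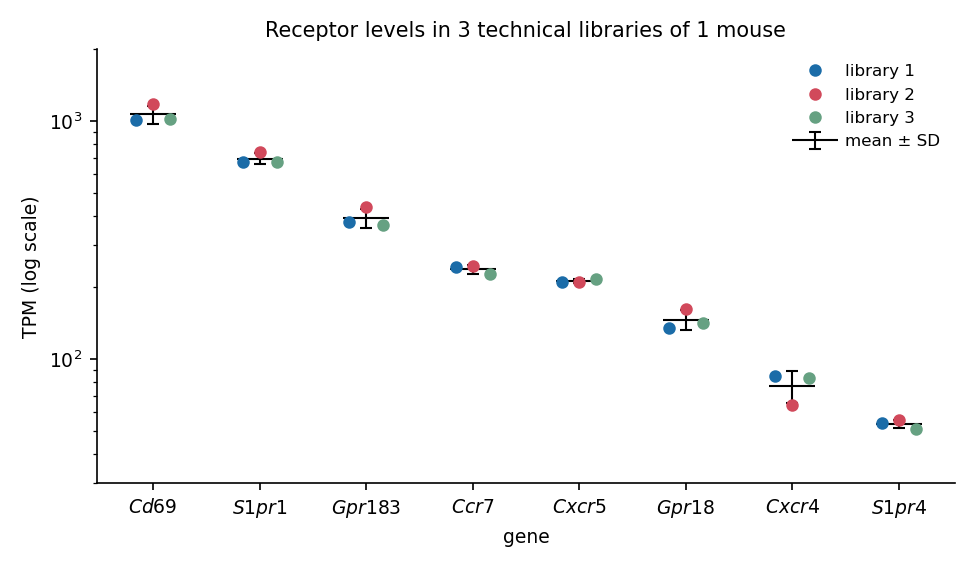
TPM on a log axis for each of the 8 genes in libraries 1, 2 and 3 (points), with the mean and SD (bars). The order of the genes is the same in all 3 libraries, from Cd69 at 1066 TPM to S1pr4 at 53.3 TPM, and no neighbouring ranges overlap.

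The main egress receptor and its antagonist led in TPM, while the other S1P receptor of the list came last. S1pr1 (ENSMUSG00000045092.8, chr3:115710433-115715072, minus strand), with its whole coding sequence in 1 of 2 exons, stood at 672, 739 and 674 TPM in libraries 1, 2 and 3. Library 2 was the highest and the other libraries lay within 3 TPM of each other. The mean was 695 TPM ± 38.1, resting on 20043, 19596 and 17764 counts, and 99.2% of protein-coding genes lay below it.

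Cd69 (ENSMUSG00000030156.5, chr6:129267325-129275436, minus strand) stood higher still, at 1006, 1174 and 1018 TPM, again with library 2 on top. Its mean of 1066 TPM ± 93.9 placed it at rank 103 of 22028 protein-coding genes. The TPM ratio of S1pr1 to Cd69 was 0.668, 0.629 and 0.662 in the 3 libraries, so Cd69 had more transcripts per length in each. Before correction for length the order was the reverse, since S1pr1 gave 1.14, 1.08 and 1.13 counts for each Cd69 count.

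S1pr4 (ENSMUSG00000044199.6, chr10:81497747-81500132, minus strand), a gene of a single exon, was the lowest of the 8. It stood at 53.8, 55.2 and 50.8 TPM, with a mean of 53.3 TPM ± 2.24 and 85.7% of protein-coding genes below it. S1pr1 exceeded it 13.1-fold ± 0.488 in TPM. Of the remaining S1P receptors, named after their values were seen, S1pr2, which restrains migration through G12 and G13 proteins, stood at 8.45, 11.3 and 15.4 TPM. In scaled counts the ratio of its highest to its lowest library was only 1.19. By the chi-square test between libraries described below, S1pr2 did not pass (adjusted p = 0.109). S1pr5 had 1.48 TPM ± 0.549 and S1pr3 had 2 counts in all, so S1pr1 held most of the S1P receptor transcripts.

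The chemokine receptors of the T cell zone and the follicle stood close together. Ccr7 (ENSMUSG00000037944.8, chr11:99144196-99155077, minus strand) stood at 243, 246 and 227 TPM. Cxcr5 (ENSMUSG00000047880.15, chr9:44511787-44561877, minus strand) stood at 211, 211 and 217 TPM. The lowest Ccr7 library and the highest Cxcr5 library were 227 and 217 TPM, so the ranges did not overlap, but the ratio of the means, 1.12, was the smallest between neighbours in the order. The TPM ratio of Ccr7 to Cxcr5 was 1.15, 1.17 and 1.05, and in counts it was 0.956, 0.995 and 0.898. In the second gene table, described below, it was 1.17, 1.23 and 1.17, so Ccr7 came second of the pair only in the counts of the first table. Cxcr5 had the smallest relative spread of the 8, with a coefficient of variation of 1.57%, on a mean of 213 TPM ± 3.34. At its 3′ end 110 exonic bases are shared with Bcl9l, on the opposite strand, which stood at 16.4 TPM ± 3.11, and the sources used here do not state whether counting used strand.

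Cxcr4 (ENSMUSG00000045382.6, chr1:128588199-128592293, minus strand) was the gene that varied most. It stood at 84.9 TPM in library 1, 63.7 TPM in library 2 and 83.0 TPM in library 3, a mean of 77.2 TPM ± 11.7 and a coefficient of variation of 15.2%. Library 2 was the low one here, while it was the highest for 6 of the other 7 genes in TPM.

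The receptors for lipid and orphan ligands came in between. Gpr183 (ENSMUSG00000051212.8, chr14:121952551-121965195, minus strand) came after Cd69 and S1pr1, at 376, 433 and 365 TPM, a mean of 391 TPM ± 36.8. Gpr18 (ENSMUSG00000050350.8, chr14:121911253-121915781, minus strand) stood at 134, 163 and 142 TPM, a mean of 146 TPM ± 14.6. Both were highest in library 2. These genes are neighbours, 36769 bases apart, and both lie inside the span of Ubac2 on the opposite strand (chr14:121878620-122021034), which stood at 106 TPM ± 3.32 and shares 0 exonic bases with either.

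Transcript tables showed that 4 of the genes (Ccr7, S1pr1, S1pr4 and Gpr18) have a single annotated transcript and that 1 transcript led in each of the other 4. For Cd69, Cd69-201, the annotated mRNA of 5 exons, took 94.6%, 94.6% and 94.6% of the gene's TPM. Cd69-204, annotated as a retained intron, is a single stretch of 4968 bases that reads through from exon 1. It took 3.97%, 3.76% and 4.22% of the TPM, and because it is long, 11.1%, 10.6% and 11.8% of the counts. Its counts of 1955, 1920 and 1857 carried an assignment SD of 5.40, 4.85 and 4.91. Cd69-203, a coding transcript that skips exon 2 and with it the sequence that follows exon 1 in the main form, took 0.986% ± 0.164 of the TPM. The stretches below show the last 20 bases of exon 1 in lower case and what follows in capitals in each transcript, read on the minus strand and starting at position 129275241 of chromosome 6.
Cd69-201: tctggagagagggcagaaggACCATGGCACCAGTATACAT
Cd69-203: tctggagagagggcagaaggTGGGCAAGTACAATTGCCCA
Cd69-204: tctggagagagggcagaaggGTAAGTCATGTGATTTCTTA

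In Cd69-204 the bases after exon 1 are the intron, which opens with the letters GT of a usual splice donor. The other Cd69 transcripts took 0.429% ± 0.152 of the TPM (Cd69-205) and 0 counts (Cd69-202).

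Cxcr4 has a pair of coding transcripts whose shares moved between the libraries. Cxcr4-201 took 86.3%, 98.0% and 89.8% of the gene's TPM in libraries 1, 2 and 3, and Cxcr4-202 the remaining 13.7%, 2.02% and 10.2%. The counts behind Cxcr4-202 were 98.6, 9.70 and 63.5, with an assignment SD of 28.0, 10.1 and 21.4, so in library 2 the count was no larger than its own assignment SD. No test was made of these shares, since the transcripts share most of their reads. The transcripts differ in the coding sequence at the junction of exons 1 and 2, shown here from the start codon on the minus strand (chr1:128589878-128592209), where the capitals mark 6 bases that only Cxcr4-201 holds.
Cxcr4-201: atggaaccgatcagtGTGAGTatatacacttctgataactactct
Cxcr4-202: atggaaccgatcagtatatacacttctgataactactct

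These bases come from the end of exon 1 and add a pair of codons near the receptor's outer end, the part that meets CXCL12. For Cxcr5, Cxcr5-201 took 89.4%, 86.5% and 86.1% of the TPM and 98.3% ± 0.271 of the counts. The remainder fell almost wholly to Cxcr5-205, a model of 358 bases with 12.6% ± 1.75 of the TPM on 68.5, 76.8 and 81.5 counts. Its length is near that of the fragments, where the length correction is least certain. Cxcr5-202 and Cxcr5-204, which begin at exons farther upstream, had 0 counts, with an assignment SD of 22.3 to 32.6 counts. Gpr183-201 took 98.9% ± 0.443 of the TPM of Gpr183.

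**Figure D2:**
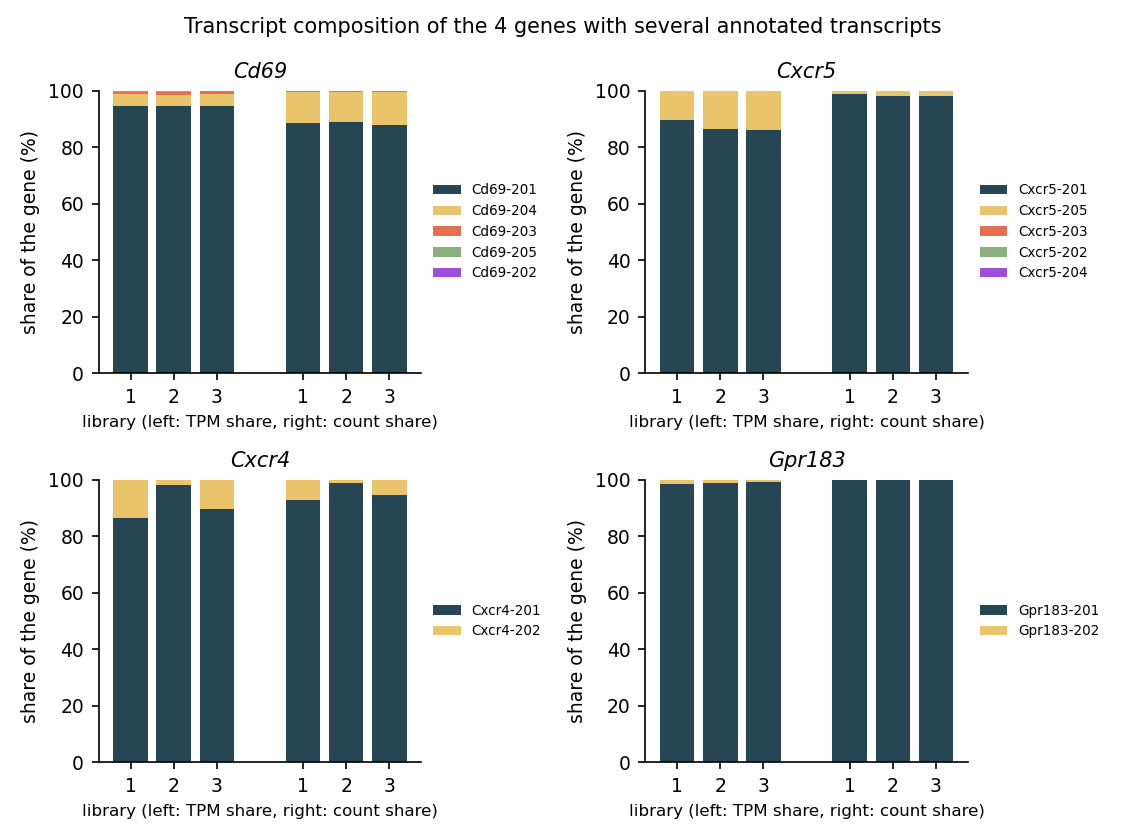
Share of each annotated transcript in Cd69, Cxcr5, Cxcr4 and Gpr183, in percent, for libraries 1, 2 and 3, from TPM (left bars) and from estimated counts (right bars). The leading transcript takes over 86% in every bar, and the long Cd69-204 is larger by counts (11.2%) than by TPM (3.98%).

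The pathway around the receptors was described by 6 gene lists, beside a median of 0.70 TPM over all protein-coding genes and 226 TPM over the 8. The ligands were at or near 0. Of the 5 ligand genes, 0 reached 1 TPM in every library, with Ccl21a and Cxcl13 at 0 counts, Ccl19 at 2 counts in all, Ccl21b at 0.020 TPM ± 0.0346 and Cxcl12 at 0.343 TPM ± 0.146. Ccl19, Ccl21a and Ccl21b have near-identical copies in the mouse genome, so their values are uncertain.

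Of 13 genes that make, move or break down S1P and oxysterols, 4 were at or above 1 TPM in every library, and the list's median was 0.360 TPM ± 0.236. The leading ones were enzymes that break down or dephosphorylate S1P, Sgpl1 (S1P lyase) at 61.7 TPM ± 5.51 and Sgpp1 (an S1P phosphatase) at 54.0 TPM ± 8.78. The kinase Sphk2, which makes S1P, followed at 15.9 TPM ± 1.59, and Cyp27a1, a sterol hydroxylase, had 0 counts.

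Of 16 other receptors of lymphocyte positioning, 12 were at or above 1 TPM in every library, with a median of 7.59 TPM ± 0.245. P2ry10, a receptor for lysophosphatidylserine, led at 275 TPM ± 20.3, followed by Gpr132 at 221 TPM ± 12.2 and Gpr171 at 88.5 TPM ± 5.73. P2ry10 exceeded Ccr7 in every library, and the range of Gpr132, 210.2 to 234 TPM, overlapped those of Ccr7 and Cxcr5.

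Signal carriers behind the receptors were abundant. Of 24 G proteins, exchange factors, kinases, arrestins and RGS proteins, 23 were at or above 1 TPM in every library, with a median of 158 TPM ± 2.26. Rac2, a small GTPase of cell movement, led at 1500.02 TPM ± 76.6, followed by Arhgef1, which links G13 proteins to RhoA, at 837 TPM ± 41.6 and Gnas, the stimulatory G protein, at 517 TPM ± 9.41. Gnai2, the inhibitory G protein through which chemokine receptors signal, stood at 478 TPM ± 11.3, and Rgs1, which limits that signal, at 453 TPM ± 12.0. The last 2 were named after their values were seen. Rgs18 had 0 counts.

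Of 7 factors reported to control these genes, 6 were at or above 1 TPM in every library, with a median of 53.4 TPM ± 3.00. Klf2, known to drive S1pr1 transcription in mouse T cells, stood at 756, 707 and 703 TPM, a mean of 722 TPM ± 29.7. Tsc22d3, also called Gilz, stood at 587 TPM ± 73.3 and Hif1a at 367 TPM ± 50.02. Klf2 and S1pr1 were thus abundant in the same libraries as Cd69, whose protein opposes S1PR1. The transcripts of Cd69 can rise quickly on activation or handling, so 8 immediate early genes were set beside it. All 8 were at or above 1 TPM in every library, with a median of 493 TPM ± 64.0, led by Junb at 4782 TPM ± 691, Nr4a1 at 1598 TPM ± 118 and Ier2 at 834 TPM ± 78.7. The sums of the immediate early genes were 8007 TPM in library 1, 9645 TPM in library 2 and 7762 TPM in library 3. Junb alone held 4468.5, 5575 and 4303 TPM of these sums, while Fosb was lowest in library 2, at 28.8 TPM. Library 2 was the highest in TPM for 6 of the 8 genes described here, Cd69, S1pr1, Gpr183, Ccr7, Gpr18 and S1pr4. The share of all genes highest there is not given here, so this count has no background beside it. Deeply counted genes in general were shifted up in library 2. In scaled counts, genes with 1000 or more counts had a median log2 deviation of 0.06 there, against -0.004 in library 1 and -0.05 in library 3. The part of the immediate early genes in the level of Cd69 was not tested.

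**Figure D3:**
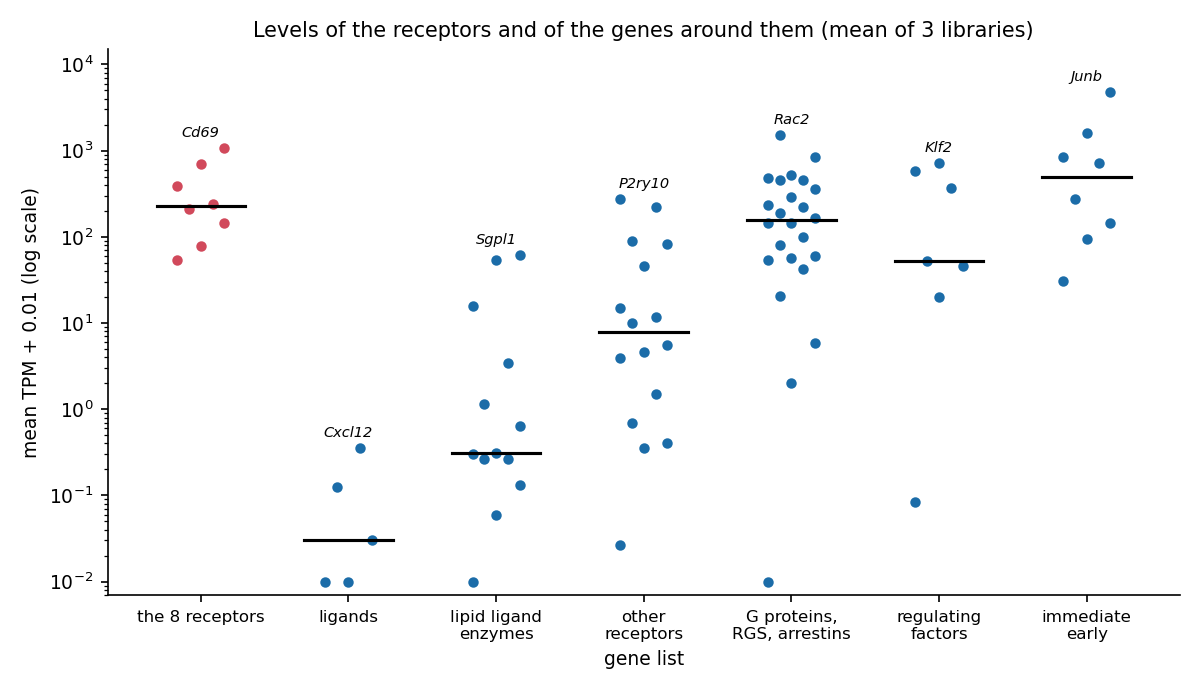
Mean TPM over 3 libraries, plus 0.01 on a log axis, of each gene (points) in the 8 receptors and in the 6 pathway lists, with the median of these gene means as a bar. The ligand genes lie below 1 TPM, while the G protein and immediate early lists spread around the level of the receptors.

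The only comparison that 1 group allows is between libraries, by a chi-square test of homogeneity on rounded estimated counts with Benjamini-Hochberg adjustment over 13949 genes. This test sets a gene's counts against counting noise and finds small differences in deeply counted genes. It called 57.2% of all tested genes, and 6 of the 8 here, so this count lies near the background, which was 70% among genes with 1000 or more counts. The ratio of the highest to the lowest library had a median of 1.13 over the 8 genes, 1.17 over genes with 1000 or more counts and 1.27 over all tested genes. Of the pathway lists, the same test called 0 of 1 ligand genes with enough counts, 3 of 6 lipid enzymes, 10 of 14 other receptors, 16 of 23 signal carriers, 5 of 6 control factors and 7 of 8 immediate early genes.

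Among the 8 the ratio was widest for Cxcr4, at 1.26 (adjusted p = 1.25e-07), where library 2 was low. Next came Gpr18 at 1.20 (adjusted p = 5.76e-08), Gpr183 at 1.19 (adjusted p = 3.08e-34), Cd69 at 1.15 (adjusted p = 1.96e-48) and S1pr1 at 1.10 (adjusted p = 2.85e-23), where library 2 was high. Ccr7, with library 3 low, had a ratio of 1.09 (adjusted p = 0.000451). Cxcr5, at 1.03 (adjusted p = 0.356), and S1pr4, at 1.09 (adjusted p = 0.147), did not pass the test. With total counts in place of TMM scaling Ccr7 no longer passed (adjusted p = 0.0861) and Cxcr5 did (adjusted p = 0.0105).

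Counting noise is a narrow yardstick for technical libraries, and the median chi-square of all genes was 6.45 times what it allows. After division by that factor 4.45% of genes were called, 9% of those with 1000 or more counts, and 3 of the 8 here. These were Cd69 (adjusted p = 1.79e-06), Gpr183 (adjusted p = 0.000193) and S1pr1 (adjusted p = 0.00644). Library 2 stood apart across the transcriptome. Of genes with 1000 or more counts, 50.6% had their largest deviation there, against 22.4% in library 1 and 26.9% in library 3. Without library 2, only Ccr7 of the 8 was called, and the adjusted p of the 5 no longer called ranged from 0.0610 for Gpr183 to 0.810 for Cxcr4. Without library 3, Ccr7 was the one no longer called (adjusted p = 0.808). Library 2 also had the largest share of counts on rows that name no gene, 0.579% against 0.188% and 0.240%, and its part in these differences was not tested.

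The direction in library 2 was not the same for all 8 genes. On the log2 scale, TMM-scaled CPM in library 2 lay above the gene's mean by 0.16 for Gpr18, 0.15 for Gpr183, 0.13 for Cd69 and 0.09 for S1pr1. For Cxcr4 the deviation was -0.21. The middle 90% of deeply counted genes in library 2 ran from -0.22 to 0.24 around a median of 0.06, so all 8 lay within it.

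**Figure D4:**
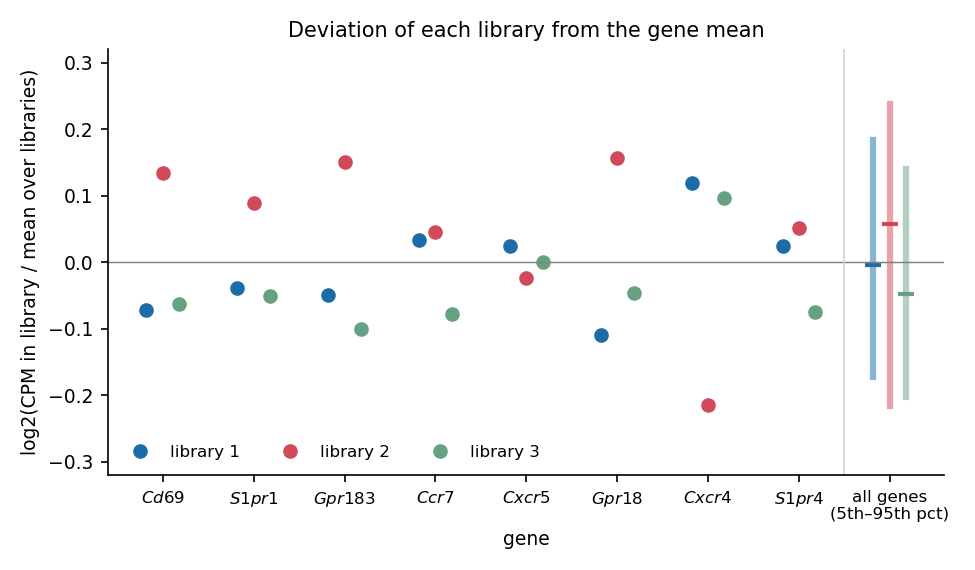
log2 ratio of the TMM-scaled CPM in each library to the mean over libraries, for the 8 genes (points) and for genes with 1000 or more counts (bars from the 5th to the 95th percentile, with the median as a line). Library 2 is highest for 6 genes and lowest for Cxcr4 (-0.21) and Cxcr5 (-0.02).

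A second gene table per library, made on GENCODE M4 from a separate alignment per the deposited file notes, gave a different picture of the most abundant receptors. Cd69 had 1240, 1250 and 1231 counts there, nearly level, against 17555, 18113 and 15788 under GENCODE M21. The first table therefore held 13.8 ± 0.881 counts for each count of the second for Cd69, 8.33 ± 0.515 for S1pr1 and 4.69 ± 0.371 for Gpr183. For the genes with few counts the factor was far smaller, with 1.78 ± 0.0407 for Cxcr4, 1.76 ± 0.0400 for Gpr18 and 1.64 ± 0.0468 for S1pr4. Over all matched genes the median factor was 1.78 for the 3463 genes with at least 100 and under 1000 counts and 3.65 for the 839 genes with 10000 or more, so the second table held relatively fewer counts where the first held many. The sources used here do not say which tool or strand setting made these counts.

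The order of the genes differs accordingly. S1pr1 led in the second table, followed by Gpr183 and Ccr7, with Cd69 and Cxcr5 next, and S1pr1 exceeded Cd69 by 1.85-fold ± 0.0153 and S1pr4 by only 3.30-fold ± 0.204. By the same chi-square test Cd69 (adjusted p = 0.151), Gpr183 (adjusted p = 0.150) and Ccr7 (adjusted p = 0.985) did not pass between libraries in the second table. S1pr1 (adjusted p = 0.0282), Gpr18 (adjusted p = 0.0234) and Cxcr4 (adjusted p = 0.000331) did, and Cxcr4 gave 755, 561 and 682 counts there, again with library 2 low.

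**Figure D5:**
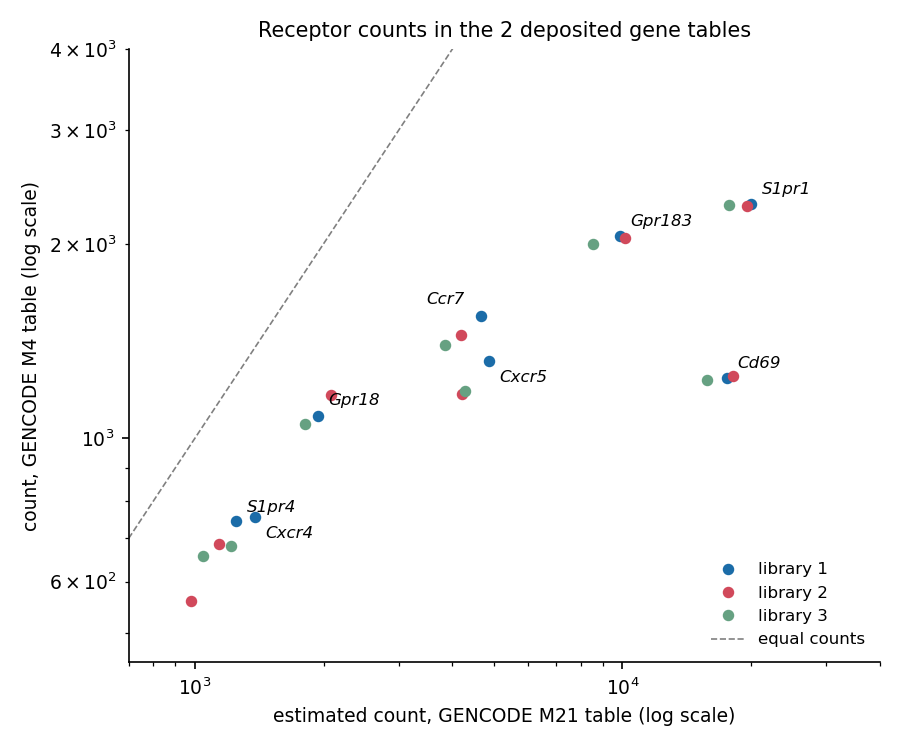
Count of each of the 8 genes in the second gene table (y axis, log) against its estimated count in the first (x axis, log), 1 point per library, with a dashed line at equal counts. Cxcr4, S1pr4 and Gpr18 lie nearest the line, and Cd69 lies farthest below it, near 1240 counts.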

How the data were processed

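RNA of 1 animal was measured in 3 libraries labelled as technical replicates, so SDs measure technical spread between libraries. The chi-square p-values set differences between these libraries against counting noise and do not measure that spread. Per the file headers, the authors deposited expected counts (estimated counts that share ambiguous reads), TPM, posterior mean TPM and the posterior SD of each count for genes and transcripts, on mm10 with GENCODE M21 per the labels. The deposited percent of each transcript within its gene was not used, and shares were recomputed from TPM and counts. A second deposited gene table lists 22457 GENCODE M4 genes with whole-number counts, of which 22195 matched by identifier. For the aligner, quantifier, versions, kit and strand setting: not given in the sources used here.

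Genes were taken by GENCODE M21 symbol. Rows naming no gene entered neither library sizes nor tests (0.188%, 0.579% and 0.240% of counts). Expected counts were rounded and tested per gene over the libraries by chi-square with edgeR TMM effective sizes, at least 30 counts and Benjamini-Hochberg adjustment at 0.05. With 1 group there was no contrast for edgeR's quasi-likelihood test. The libraries differed beyond sampling noise in every pair, since chi-square per gene averaged 18.5 (libraries 1 and 2), 6.08 (1 and 3) and 20.1 (2 and 3), so all 3 were kept. The test was also run on simulated counts that held only counting noise and genes changed on purpose. That run lacks the excess spread seen between the real libraries, so it does not show how the test behaves under it. The members and the 15 gene lists (6 pathway, 9 marker) were chosen with earlier results of these data known. Named are all members, overlapping genes, and in each list the 3 highest genes, all genes of lists of up to 6, and genes with 0 counts; genes of the marker lists are partly given as sums, and 1 listed gene is not reported here. Sequences come from GENCODE M21 transcripts. Alternatives were the second table, an inflation-corrected chi-square, other units, leaving out each library, total counts, DESeq2 size factors and count minimums of 1 and 100. The tools were edgeR 4.0.16 and DESeq2 1.42.0 in R 4.3.3, and pandas 2.3.3, scipy 1.17.1, numpy 2.4.6, biopython 1.88 and matplotlib 3.10.9 in Python 3.11.15.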

Additional observations from a re-analysis of the deposited data

How the results depend on the processing

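Detection of the 8 genes at 0.5, 1 and 10 TPM and the leading transcripts were the same under the alternatives run. The order of the genes was the same in posterior mean TPM but not in CPM or in the second table, and ratios between genes moved with it. S1pr1 to Cd69, 0.653 in TPM, became 1.12 in CPM and 1.85 in the second table, and Ccr7 to Cxcr5, 1.12 in TPM, became 0.950 and 1.19. Ccr7 to S1pr1, 0.344 in TPM, became 0.221 and 0.636, and S1pr1 to S1pr4, 13.1 in TPM, became 16.7 and 3.30. CPM leaves out the correction for length, and the cause of the shift in the second table was not tested. The number of genes that differed between libraries, 7973, became 2804 in the second table and 621 after division by the median inflation, with 3 of the 8 genes in each. These were Cxcr4, S1pr1 and Gpr18 in the second table, and S1pr1, Gpr183 and Cd69 after the division. Leaving out 1 library in turn gave 3546 to 5516 genes and 1 to 6 of the 8, the lowest without library 2. No paired analysis was possible because the libraries form 1 group. Precision is limited by 3 technical libraries of 1 animal, and intervals and floors cover counting error only.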
